A study of Mus musculus with 2 samples.

Results

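The integrated stress response is described here through 9 genes, listed by symbol: Atf4, Atf3, Atf5, Ddit3, Ddit4, Trib3, Asns, Chac1 and Gdf15, out of 32285 gene IDs in the count matrices. They were measured by single-nucleus RNA sequencing of mouse colon with 3' tags, where each count is 1 unique molecular identifier (UMI). One library came from 15-week-old male wild-type C57BL/6 mice and the other from male Pink1 knockout littermates of the same age. The Pink1 kinase tags damaged mitochondria for removal. Each library pooled the sorted nuclei of 3 mice before loading, so there are no replicates and no test between the genotypes was possible. Genotype, library and batch (1 for wild type, 2 for knockout) coincide and cannot be told apart.

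The kept nuclei numbered 8256 in the wild-type and 10966 in the knockout library, at median depths of 1624.5 and 1571 UMIs, and 28 barcodes occurred in both libraries. The Pink1 transcript had 171 wild-type and 113 knockout UMIs, a ratio of 0.537 (0.420 to 0.686). The deleted part is not stated in the labels, and tags outside it check nothing about the label. Nuclei fell into 30 clusters, named from marker genes with stress genes kept out of the clustering, and 16 classes took a name. The goblet-like, colonocyte-like, crypt and unnamed epithelial clusters are 12 in number, with the epithelial gene Epcam at 240 to 841 CPM (counts scaled to the usual common total). Tuft-like and enteroendocrine-like clusters, also epithelial, are not among these 12. The unnamed epithelial clusters are given by number: cluster 0, led by Gsdmc3 and Gk, cluster 2, led by Plet1 and Etv5, cluster 3, led by Apol10a and Aqp4, and cluster 13, led by Mirg and Meg3. Leading genes included the inflammatory or immune genes Saa1 in colonocyte-like cluster 5, Slfn4 in goblet-like cluster 6 and Ptgs2 in fibroblast-like cluster 15. Colonocyte-like nuclei lay mostly in cluster 5 in the wild-type library (652 of 1230) and in clusters 8 and 10 in the knockout library (647 and 595 of 1813), so values of that class also carry the mix of clusters.

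In the integrated stress response, kinases that sense viral RNA, unfolded protein, missing amino acids or missing heme phosphorylate the translation factor eIF2 alpha. Most protein synthesis then slows, while the messenger RNA of ATF4 is translated more, because short open reading frames ahead of its coding sequence hold it back in unstressed cells. ATF4 enters the nucleus and, with C/EBP proteins and other partners, switches on genes of amino acid supply, feedback and cell death. In mammals, mitochondrial damage can reach the same pathway through the protease OMA1 and its substrate DELE1. Since ATF4 is set largely by translation, the level of its transcript is only part of its control.

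The promoters are shown because the ATF4 partner complex reads a known sequence, the C/EBP-ATF response element, which is one feature the 9 genes may share. RefSeq promoter windows (GRCm38.p6, 300 bases from 250 before to 50 after each transcript start) were found for 9 of 9 genes, in 11 windows. The core TGATGNAA, searched on both strands (TTNCATCA on the other), occurred in windows of 4 genes, against 3.97% of all 32851 windows (1304). The first is a count of genes, some with more than 1 window, and the second a share of windows, so the units differ. Each stretch below runs 5' to 3' on the strand of its gene, with the core in capitals.
Atf3, chr1:191183416-191183463, minus strand: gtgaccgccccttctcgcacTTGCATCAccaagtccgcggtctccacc
Chac1, chr2:119351029-119351076, plus strand: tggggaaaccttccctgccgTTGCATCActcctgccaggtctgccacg
Trib3, chr2:152344019-152344066, minus strand: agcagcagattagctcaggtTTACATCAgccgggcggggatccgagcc
Asns, chr6:7693205-7693252, minus strand: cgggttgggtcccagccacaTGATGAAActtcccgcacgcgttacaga
The first base of the core lay 110 bases before the start in Atf3, 193 before in Chac1, 23 before in Asns and 14 bases into the transcript in Trib3. The cAMP response element TGACGTCA, which reads the same on both strands, occurred in 1.79% of all windows (588) and in 0 of the 9 genes. A match is a string of letters, not a site shown to be bound. Of the 4 genes with the core, Atf3 stood at least 1.5-fold higher in the knockout library, Asns lay within 1.5-fold, and Chac1 and Trib3 had too few UMIs to place.

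Over all nuclei, 2 of the 9 genes stood at least 1.5-fold higher in the knockout library, Atf3 and Ddit4, and 0 stood as much lower. Of all 16563 genes with at least 20 UMIs over both libraries, 6.73% were as much higher and 8.16% as much lower. Atf4, Ddit3, Atf5, Asns and Gdf15 lay within 1.5-fold, and Trib3 and Chac1 fell under the minimum of 20 UMIs. The median log2 ratio of the 7 measured genes was 0.14, and that of all genes measured was -0.02. Ratios here and below are knockout over wild-type CPM over nuclear-encoded genes, with 95% exact intervals in parentheses that cover counting error only and not the differences between mice.

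**Figure D1:**
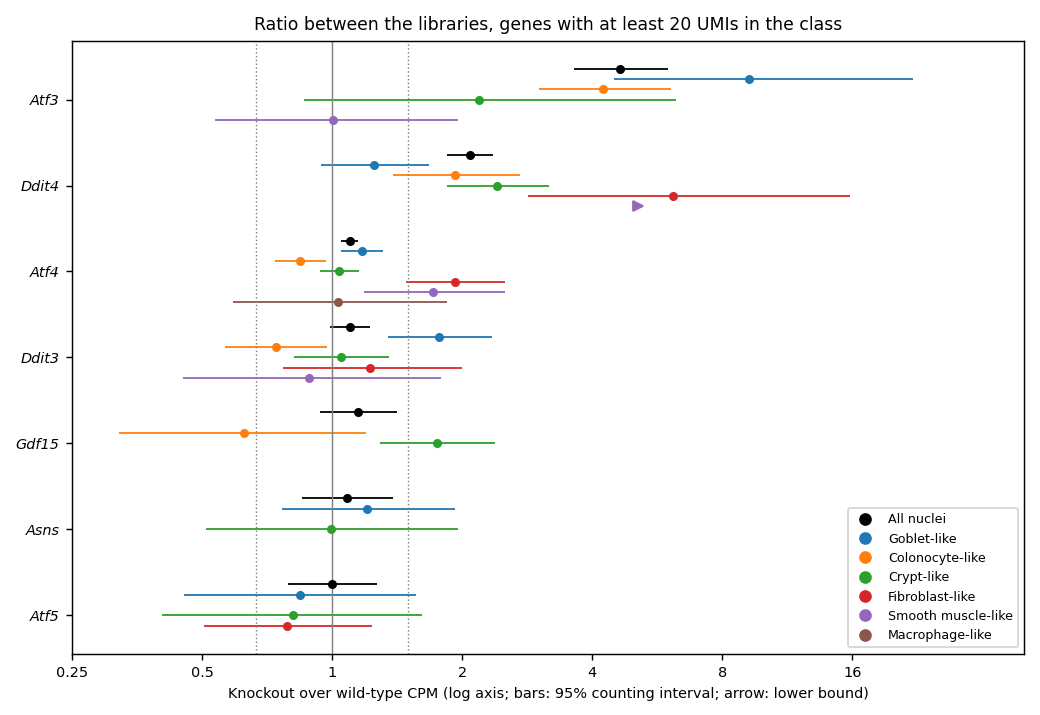
Ratio of knockout over wild-type CPM (x axis, log scale) of the 7 genes with enough UMIs (y axis), over all nuclei and in 6 cell classes (colours), each point with its 95% counting interval. Dotted lines mark 1.5-fold in each direction, and the arrow is a lower bound for Ddit4 in smooth muscle-like nuclei, where the wild-type library had 0 UMIs. Atf3 and Ddit4 lie to the right of the other genes over all nuclei.

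Atf4 (ENSMUSG00000042406; GRCm38, chromosome 15, 80255184 to 80257541) encodes the transcription factor at the centre of the response. It had 3184 wild-type and 4297 knockout UMIs, or 211 CPM (204 to 219) and 232 CPM (225 to 239), a ratio of 1.10 (1.05 to 1.15). The difference is small beside what separates cell types. Over the 6 classes compared, wild-type Atf4 ran from 89.6 CPM (64.0 to 122) in smooth muscle-like nuclei to 279 CPM (256 to 303) in the mucus-making goblet-like nuclei. Macrophage and dendritic-like (97.1 CPM) and fibroblast-like nuclei (121 CPM) were neighbours of smooth muscle whose intervals overlapped with it. Colonocyte-like nuclei, the absorptive cells, were at 166 CPM (151 to 183), and crypt base and proliferating nuclei, with the stem and dividing cells, at 194 CPM (180 to 209).

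Among the 12 epithelial clusters Atf4 was highest in the unnamed clusters 13 and 2, at 357 and 352 CPM in the wild-type and 433 and 484 CPM in the knockout library. Goblet-like cluster 6, led by Fcgbp, Clca1 and Zg16, followed with 308 and 361 CPM. Colonocyte-like cluster 5, led by Slc37a2 and Aqp8, held the lowest level of the 12 in both libraries, at 147 and 105 CPM, next to cluster 10 at 108 CPM in the knockout library.

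Between the libraries the Atf4 ratio lay on either side of 1 in different classes. In fibroblast-like nuclei it had 77 wild-type and 254 knockout UMIs, or 121 CPM (95.4 to 151) and 232 CPM (204 to 262), which do not overlap, a ratio of 1.92 (1.48 to 2.51). The ratio was 2.07 (1.45 to 3.01) in cluster 11, led by Dcn and Clec3b, and 1.65 (1.04 to 2.67) in cluster 15, led by Nrg1 and Fst. In smooth muscle-like nuclei it had 40 and 116 UMIs, 89.6 and 153 CPM, a ratio of 1.71 (1.18 to 2.52), or 1.40 without doublet removal. The ratio was 1.17 (1.05 to 1.31) in goblet-like nuclei, but 1.04 with each nucleus thinned to 500 UMIs. Crypt base and proliferating nuclei had a ratio of 1.04 (0.936 to 1.15) and macrophage and dendritic-like nuclei one of 1.03 (0.588 to 1.84). Colonocyte-like nuclei had less in the knockout library, at 166 and 141 CPM (128 to 154), a ratio of 0.844 (0.738 to 0.967), or 0.908 with TMM scaling. By cluster the ratio was 0.591 (0.445 to 0.785) in cluster 10, 0.718 (0.569 to 0.903) in cluster 5 and 1.02 (0.806 to 1.29) in cluster 8.

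**Figure D2:**
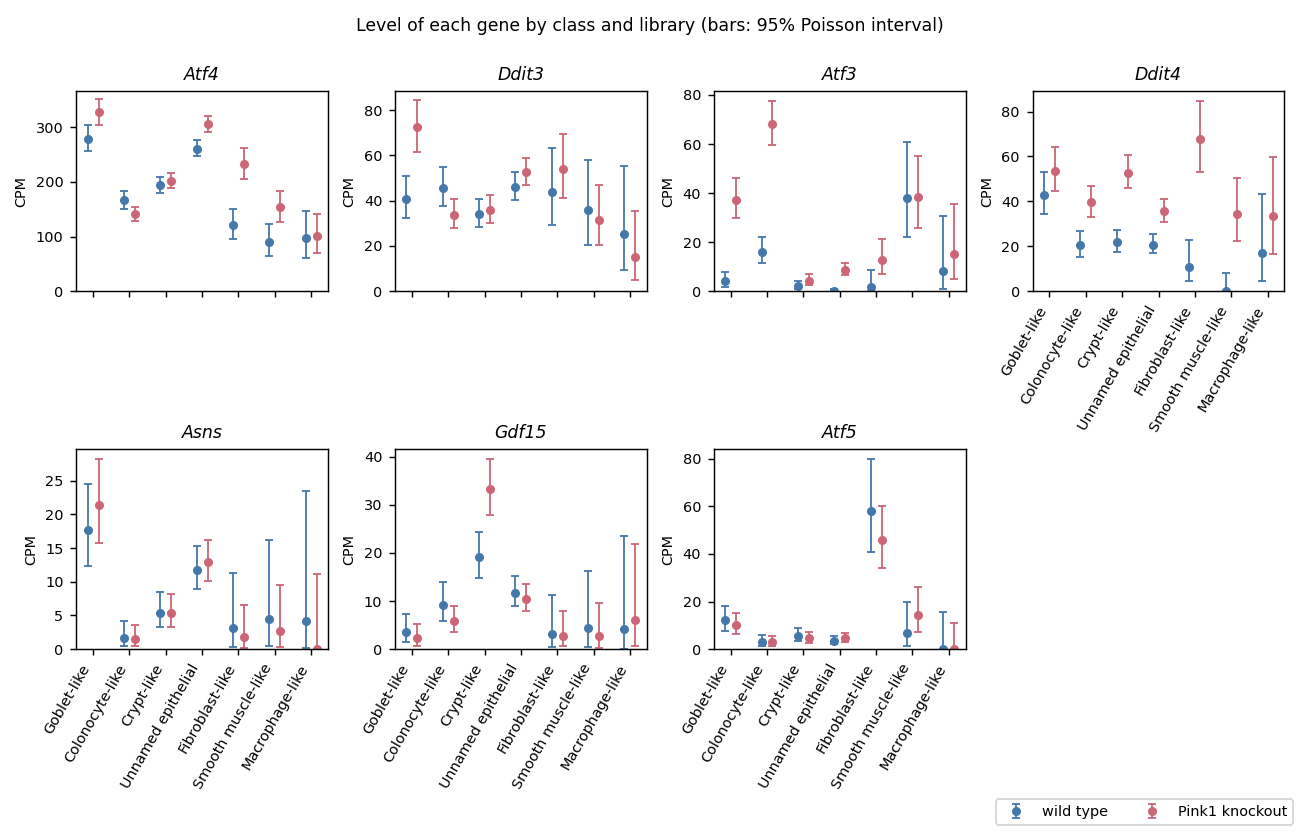
CPM (y axis, from 0, a different scale in each panel) of 7 genes in 6 named classes and the unnamed epithelial clusters (x axis), in the wild-type (blue) and Pink1 knockout library (red), with 95% Poisson intervals. Of the groups shown, Atf3 is highest in knockout colonocyte-like nuclei at 68.1 CPM, Atf5 in fibroblast-like nuclei of both libraries, and Gdf15 in crypt base and proliferating nuclei of both libraries.

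Atf3 (ENSMUSG00000026628; chromosome 1, 191170296 to 191218039) encodes a factor that ATF4 induces and that other stimuli switch on as an immediate early gene. It showed the largest ratio of the 7 measured genes over all nuclei. It had 76 wild-type and 433 knockout UMIs, or 5.04 CPM (3.97 to 6.31) and 23.4 CPM (21.2 to 25.7), a ratio of 4.63 (3.62 to 5.99). The knockout library was higher, with intervals far apart. In nuclei without a mitochondrial UMI, a check chosen after seeing the data, the ratio was 3.34.

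Of the 6 classes, colonocyte-like nuclei held the most Atf3 UMIs in both libraries, and goblet-like nuclei the next most in the knockout library. By level, smooth muscle-like nuclei were highest in the wild-type library, through 1 nucleus. Colonocyte-like nuclei had 40 and 224 UMIs, 16.1 CPM (11.5 to 22.0) and 68.1 CPM (59.5 to 77.7), a ratio of 4.23 (3.01 to 6.08), and 9.69 in nuclei without a mitochondrial UMI, from 6 and 23 UMIs. Goblet-like nuclei had 8 and 84 UMIs, 4.04 CPM (1.74 to 7.96) and 37.3 CPM (29.8 to 46.2), a ratio of 9.24 (4.48 to 22.1). Both classes were higher in the knockout library with no overlap of intervals. Crypt base and proliferating nuclei had only 7 and 17 UMIs, a ratio of 2.19 (0.861 to 6.23) whose interval includes 1, and 1.41 with 10% of each sum subtracted as free RNA.

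Within those classes the knockout signal was concentrated in a few clusters. Cluster 5 had the highest knockout level, with 26 wild-type and 147 knockout UMIs, 18.6 and 127 CPM, a ratio of 6.82 (4.47 to 10.8). Goblet-like cluster 6 had 6 and 74 UMIs, a ratio of 10.0 (4.39 to 28.2), and colonocyte-like cluster 10, led by Slc10a2 and Abca12, had 8 and 58, a ratio of 4.00 (1.90 to 9.70). In cluster 8, led by Slc9a3 and Guca2a, the counts were 6 and 19, or 11.0 and 16.5 CPM. The unnamed cluster 0 had 0 and 31 UMIs. With the wild-type count set to a floor of 3 UMIs the ratio was 8.59, without the counting error of the knockout library. Crypt clusters 1, 4 and 7 had between 1 and 6 UMIs in each library.

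Outside the epithelium Atf3 rested on few UMIs. Smooth muscle-like nuclei had 17 and 29 UMIs, 38.1 and 38.3 CPM, a ratio of 1.01 (0.535 to 1.95). With the top nucleus of each library left out the counts were 4 and 26 and the ratio 3.83, so 1 wild-type nucleus with 13 UMIs set the level there. Fibroblast-like nuclei had 1 and 14 UMIs, a ratio of 8.15 (1.24 to 344), and macrophage and dendritic-like nuclei 2 and 5. Blood endothelium-like and plasma-like nuclei had 0 in both libraries.

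**Figure D3:**
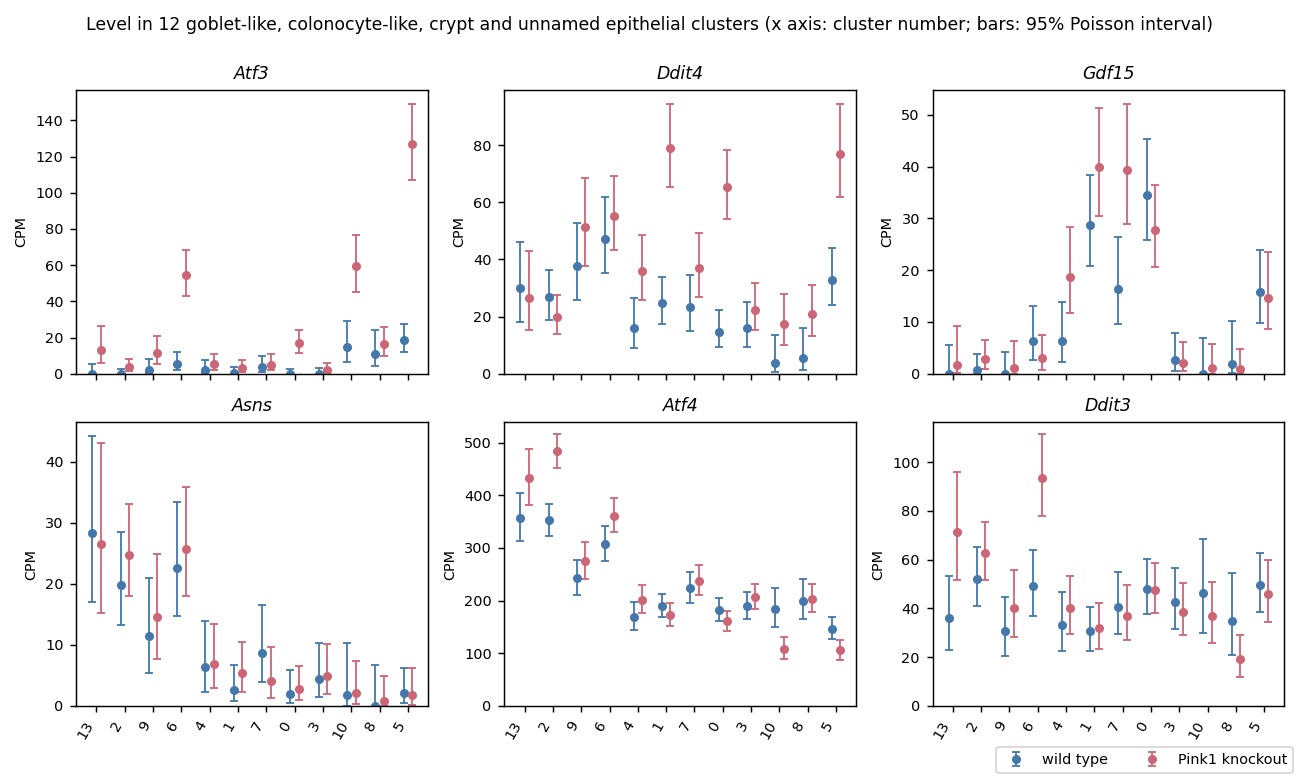
CPM (y axis, from 0) of 6 genes in the 12 goblet-like, colonocyte-like, crypt and unnamed epithelial clusters (x axis, cluster number) in the wild-type (blue) and Pink1 knockout library (red), with 95% Poisson intervals. Knockout Atf3 peaks in clusters 5, 10 and 6, Ddit4 in clusters 1, 5 and 0, while Gdf15 is highest in clusters 0, 1 and 7 and Asns and Atf4 in clusters 13, 2 and 6.

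Ddit3 (ENSMUSG00000025408; chromosome 10, 127290774 to 127296288) encodes CHOP, a C/EBP family factor that promotes cell death under lasting stress. It had 624 wild-type and 844 knockout UMIs, 41.4 CPM (38.2 to 44.8) and 45.5 CPM (42.5 to 48.7), a ratio of 1.10 (0.991 to 1.22). The libraries overlapped. A second ID of the same symbol had 0 UMIs, and Mars and Gm4189 overlap the gene on the other strand, which matters if counting ignored strand (not given in the sources used here).

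Goblet-like nuclei had 81 and 163 Ddit3 UMIs, 40.9 CPM (32.5 to 50.8) and 72.4 CPM (61.7 to 84.4), higher in the knockout library without overlap, a ratio of 1.77 (1.35 to 2.34). With each nucleus thinned to 500 UMIs the ratio was 1.26, from 25 and 37 UMIs. By cluster it was 1.91 (1.38 to 2.68) in cluster 6 and 1.31 (0.773 to 2.24) in cluster 9, led by Mptx1 and Reg4. Unnamed cluster 13 had 24 and 43 UMIs, a ratio of 1.99 (1.18 to 3.43). Colonocyte-like nuclei went the other way with 113 and 111 UMIs, 45.5 and 33.8 CPM, a ratio of 0.741 (0.565 to 0.972). That direction turned in nuclei without a mitochondrial UMI, at 1.498 from 27 and 16 UMIs. Crypt base and proliferating nuclei had a ratio of 1.05 (0.817 to 1.35), fibroblast-like nuclei 1.23 (0.770 to 2.00), but 1.67 in thinned nuclei, and smooth muscle-like nuclei 0.885 (0.451 to 1.78), but 0.279 from 6 and 3 UMIs in thinned nuclei.

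Atf5 (ENSMUSG00000038539; chromosome 7, 44812256 to 44816658) encodes a relative of ATF4 that is also set by translation and that serves the mitochondrial unfolded protein response. It had 131 and 161 UMIs, 8.69 CPM (7.26 to 10.3) and 8.68 CPM (7.39 to 10.1), a ratio of 0.999 (0.789 to 1.27). The intervals overlapped. Cell classes differed more: fibroblast-like nuclei had 58.1 CPM (40.9 to 80.0) and 45.7 CPM (33.9 to 60.2), against 2.82 and 3.04 CPM in colonocyte-like nuclei. The fibroblast-like ratio was 0.786 (0.504 to 1.24), from 37 and 50 UMIs. The highest fibroblast level was in cluster 22, led by Gfpt2 and Pi16, at 176 and 102 CPM from 11 UMIs in each library. Nup62 and Il4i1 overlap Atf5 on the other strand.

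Ddit4 (ENSMUSG00000020108; chromosome 10, 59949669 to 59951834) encodes REDD1, an inhibitor of the growth kinase mTORC1 that ATF4, hypoxia and glucocorticoids all induce. It had 369 wild-type and 946 knockout UMIs, 24.5 CPM (22.0 to 27.1) and 51.0 CPM (47.8 to 54.4), a ratio of 2.08 (1.85 to 2.36). The knockout library was higher, without overlap.

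In crypt base and proliferating nuclei Ddit4 had 77 and 206 UMIs, 22.0 and 52.9 CPM, a ratio of 2.41 (1.84 to 3.17), and in nuclei without a mitochondrial UMI 4.50. Colonocyte-like nuclei had 51 and 130, 20.6 and 39.5 CPM, a ratio of 1.92 (1.38 to 2.71), with 3.81 in thinned nuclei and 6.95 in nuclei without a mitochondrial UMI, from 4 and 11 UMIs. Goblet-like nuclei started from the highest wild-type level of the 6 classes, 42.9 CPM (34.3 to 53.1), and reached 53.8 CPM (44.6 to 64.2), a ratio of 1.25 (0.941 to 1.67) whose interval includes 1, and 1.57 in thinned nuclei. Among epithelial clusters the ratio was 4.46 (2.81 to 7.39) in cluster 0, from 22 and 118 UMIs, and 3.19 (2.20 to 4.73) in crypt cluster 1, led by Fut9 and Smoc2. It was 0.742 (0.458 to 1.20) in cluster 2 and 0.888 (0.431 to 1.80) in cluster 13, the clusters where Atf4 was highest.

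In fibroblast-like nuclei Ddit4 had 7 and 74 UMIs, 11.0 CPM (4.42 to 22.6) and 67.6 CPM (53.1 to 84.8), a ratio of 6.15 (2.84 to 15.8). The value was 2.34 in thinned nuclei and 4.07 without doublet removal. Smooth muscle-like nuclei had 0 and 26 UMIs, so the gene passed the minimum only through the knockout library. With the wild-type count set to a floor of 3 UMIs the ratio was 5.11, or 1.86 in thinned nuclei. These ratios leave out the counting error of the knockout library. Without doublet removal the counts were 1 and 37. Macrophage and dendritic-like nuclei had 4 and 11, under the minimum.

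In the knockout library the highest Ddit4 levels of all named classes were endothelial, in classes with too few nuclei to be among the 6 compared. Lymphatic endothelium-like nuclei (84 and 132) had 31 and 77 UMIs, 289 CPM (197 to 411) and 533 CPM (421 to 667), a ratio of 1.84 (1.20 to 2.89). Blood endothelium-like nuclei (73 and 162) had 2 and 57 UMIs, 23.7 CPM (2.87 to 85.5) and 367 CPM (278 to 475), a ratio of 15.5 (4.09 to 131). Both were higher in the knockout library and neither pair of intervals overlapped.

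Trib3 and Chac1 had few UMIs in both libraries. Trib3 (ENSMUSG00000032715; chromosome 2, 152337422 to 152344032), a pseudokinase that restrains ATF4 and the kinase AKT, had 9 wild-type and 2 knockout UMIs over all nuclei, a ratio of 0.181 (0.019 to 0.873). Of the wild-type UMIs 3 came from blood endothelium-like, 2 from goblet-like and 2 from smooth muscle-like nuclei. Chac1 (ENSMUSG00000027313; chromosome 2, 119351229 to 119354381), an enzyme that breaks down glutathione, had 6 and 12 UMIs, a ratio of 1.63 (0.565 to 5.28). Of these, 5 knockout UMIs lay in plasma-like nuclei, which had 0 in the wild-type library, and 4 wild-type and 3 knockout UMIs in goblet-like nuclei. Neither gene reached 20 UMIs over both libraries, so neither enters the counts of genes past 1.5-fold.

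Asns (ENSMUSG00000029752; chromosome 6, 7675169 to 7693254) encodes asparagine synthetase, a classic ATF4 target. It had 120 and 160 UMIs, 7.96 CPM (6.60 to 9.52) and 8.63 CPM (7.34 to 10.1), a ratio of 1.08 (0.850 to 1.39), which overlapped. In nuclei without a mitochondrial UMI the ratio was 0.616, from 34 and 9 UMIs. Goblet-like nuclei had 17.7 and 21.3 CPM, a ratio of 1.21 (0.764 to 1.92), and colonocyte-like nuclei 1.61 and 1.52 CPM from 4 and 5 UMIs. Cluster 13 (28.4 and 26.5 CPM), cluster 6 (22.7 and 25.8 CPM) and cluster 2 (19.8 and 24.8 CPM) held the highest levels of the 12 epithelial clusters, and these are also the clusters highest in Atf4. In crypt base and proliferating nuclei the ratio was 0.995 (0.509 to 1.96), from 19 and 21 UMIs, and 0.566 in thinned nuclei, from 6 and 4.

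Gdf15 (ENSMUSG00000038508; chromosome 8, 70629393 to 70632456) encodes a secreted hormone that lowers appetite and is used as a blood marker of mitochondrial disease. It had 162 and 229 UMIs, 10.7 CPM (9.15 to 12.5) and 12.4 CPM (10.8 to 14.1), a ratio of 1.15 (0.936 to 1.41), which overlapped. Crypt base and proliferating nuclei had the highest level of the 6 classes in both libraries. They had 67 and 130 UMIs, 19.1 CPM (14.8 to 24.3) and 33.4 CPM (27.9 to 39.6), higher in the knockout library without overlap, a ratio of 1.75 (1.29 to 2.38).

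Within the crypt class the Gdf15 ratio was 2.39 (1.35 to 4.44) in cluster 7, led by the cell division genes Top2a and Esco2, from 17 and 48 UMIs. It was 2.94 (1.15 to 8.85) in cluster 4, led by Hoxb8 and Lgr5, from 6 and 22 UMIs, and 1.39 (0.927 to 2.10) in cluster 1, from 44 and 60. Unnamed cluster 0 had 52 and 50 UMIs, 34.6 and 27.7 CPM, a ratio of 0.799 (0.531 to 1.20), overlapping. Colonocyte-like nuclei had 23 and 19, a ratio of 0.624 (0.321 to 1.20), which became 1.03 with the stricter filter and 1.19 in thinned nuclei. Each of the other 4 classes had at most 7 UMIs in either library.

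Counting the genes by class, in colonocyte-like nuclei 2 of 5 measured were at least 1.5-fold higher (Atf3 and Ddit4) and 1 as much lower (Gdf15), against 7.06% and 13.6% of all genes measured there. In goblet-like nuclei 2 of 6 were higher (Atf3 and Ddit3) and 0 lower, against 6.42% and 12%. Crypt base and proliferating nuclei had 3 of 7 higher (Atf3, Ddit4 and Gdf15) and 0 lower, against 5.15% and 7.37%. Fibroblast-like nuclei had 2 of 4 higher (Atf4 and Ddit4) and 0 lower, against 11.4% and 10.4%, and smooth muscle-like nuclei also 2 of 4 (Atf4 and Ddit4 again) and 0 lower, against 13.6% and 11.5%. In macrophage and dendritic-like nuclei 1 gene was measured and 0 passed, against 15.9% higher and 14.9% lower. The unnamed epithelial clusters together had 2 of 7 higher (Atf3 and Ddit4) and 0 lower, against 5.76% and 8.51%. Only Atf4 was measured in all 6 classes, and it was past 1.5-fold in fibroblast-like and smooth muscle-like nuclei alone. Of the classes where they were measured, Ddit4 was within 1.5-fold only in goblet-like nuclei and Atf3 only in smooth muscle-like nuclei. Atf3 in goblet-like, crypt and unnamed epithelial nuclei, and Ddit4 in fibroblast-like and smooth muscle-like nuclei, met the minimum of 20 UMIs only through the knockout library. A call there could only be higher, so none is read against the share of all genes. The counts above include these calls and cannot as a whole be set against the shares. The calls left to read are Atf3 and Ddit4 in colonocyte-like nuclei, Ddit3 in goblet-like nuclei and Ddit4 and Gdf15 in crypt nuclei. The others are Atf4 in fibroblast-like and smooth muscle-like nuclei and Ddit4 in the unnamed clusters. The lower call of Gdf15 in colonocyte-like nuclei, from 23 and 19 UMIs, reached 20 UMIs in the wild-type library alone. It reversed with the stricter filter and in thinned nuclei. In the unnamed clusters Atf3 had 0 and 49 UMIs.

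Upstream of ATF4, the list of eIF2 alpha kinases, phosphatases and eIF2B had 1 of 19 measured genes at least 1.5-fold higher over all nuclei and 0 lower. Its median log2 ratio was -0.00. Of all genes, 6.73% were as much higher and 8.16% as much lower, so 1 of 19 is near that share. The 4 kinases lay within 1.5-fold. Eif2ak1 (HRI, the heme sensor) had a ratio of 1.01 (0.905 to 1.13), Eif2ak2 (PKR) 1.01 (0.936 to 1.10), Eif2ak3 (PERK) 1.10 (0.985 to 1.23) and Eif2ak4 (GCN2) 0.870 (0.791 to 0.958). The gene past 1.5-fold was Ppp1r15a, or GADD34, the stress-induced phosphatase subunit that restores translation, with 108 and 295 UMIs, 7.16 and 15.9 CPM, a ratio of 2.22 (1.78 to 2.80). Smooth muscle-like nuclei had a ratio of 3.10 (1.44 to 7.64), fibroblast-like nuclei one of 2.62 (1.20 to 6.52), and the ratio was 1.18 (0.605 to 2.36) in colonocyte-like nuclei. Dele1, which relays mitochondrial stress to HRI, had the lowest ratio of the list at 0.785 (0.718 to 0.858).

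Of 13 measured partners and feedback genes of ATF4, 6 passed 1.5-fold upward and 0 downward, against 6.73% and 8.16% of all genes. Their median log2 ratio was 0.56. The 6 were Cebpb, Cebpd, Jdp2, Nupr1, Ppp1r15a and Tsc22d3. Tsc22d3, also a glucocorticoid target, was highest at 2.56 (2.25 to 2.91) and Sesn2, which restrains mTORC1, lowest at 0.707 (0.549 to 0.910). The C/EBP genes differed between classes, without a test of that difference. Cebpd had 128 and 975 UMIs in fibroblast-like nuclei, a ratio of 4.43 (3.68 to 5.37), but 115 and 72 in colonocyte-like nuclei, a ratio of 0.473 (0.347 to 0.640). Cebpb, which pairs with ATF4, had ratios of 3.17 (2.26 to 4.56) and 0.975 (0.554 to 1.74) in the same classes.

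Over all nuclei, 6.73% of all genes were at least 1.5-fold higher and 8.16% at least 1.5-fold lower, shares near those of the amino acid supply list. Of 21 measured ATF4 target enzymes and transporters of amino acid supply, 1 was higher, Got1 at 1.52 (1.30 to 1.79), and 1 lower, Slc7a11, the cystine importer, at 0.430 (0.313 to 0.585) from 123 and 65 UMIs. Their median log2 ratio was -0.07. Of 13 aminoacyl-tRNA synthetase and tRNA export genes 0 passed 1.5-fold in either direction, with a median of 0.06 and a range from Yars at 0.927 (0.853 to 1.01) to Mars at 1.33 (1.03 to 1.73). Of 12 mitochondrial chaperones and proteases 0 passed, with a median of 0.04, Hspa9 highest at 1.26 (1.15 to 1.39) and Afg3l2 lowest at 0.902 (0.861 to 0.945).

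Of 19 measured genes of the endoplasmic reticulum unfolded protein response, 3 were at least 1.5-fold higher over all nuclei and 0 lower. The shares of all genes were 6.73% and 8.16%. The median log2 ratio of the list was 0.11. The chaperone gene Hspa5 had 2184 and 5428 UMIs, a ratio of 2.02 (1.92 to 2.13), Herpud1, of protein degradation at the reticulum, 2.12 (2.01 to 2.25), and the transcription factor gene Xbp1 1.66 (1.58 to 1.74). Hyou1, a chaperone gene, was lowest at 0.848 (0.752 to 0.956). In goblet-like nuclei, where Ddit3 was higher, Hspa5 had a ratio of 2.66 (2.39 to 2.97) and Herpud1 2.55 (2.29 to 2.84), and 5 of 18 measured genes of the list were higher and 0 lower, against 6.42% and 12% of all genes there. In colonocyte-like nuclei, where Ddit3 was not higher, Hspa5 stood at 1.78 (1.498 to 2.12) and Herpud1 at 1.34 (1.11 to 1.63), and 2 of 18 were higher and 1 lower (Pdia4), against 7.06% and 13.6%. The difference between the classes was not tested.

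Other measures also moved with the knockout library. Of 22 immediate early genes, the first to be transcribed after a stimulus, 19 were at least 1.5-fold higher and 0 lower, with a median log2 ratio of 1.41. Of all genes, 6.73% were as much higher and 8.16% as much lower. Egr1 had 549 and 18127 UMIs, a ratio of 26.9 (24.7 to 29.3), and Fos 918 and 8985, a ratio of 7.96 (7.44 to 8.53). In the 6 classes the Egr1 ratio ran from 3.60 to 61.1 and that of Fos from 4.71 to 24.3. Of 9 glucocorticoid receptor targets 6 were higher and 1 lower (Zbtb16, 0.600), and of 10 hypoxia response genes 0 were higher and 2 lower (Pdk1 and Ankrd37). The lists overlap: Dusp1 is counted among both the immediate early genes and the glucocorticoid targets, and Tsc22d3 among both the latter and the ATF4 partners. Ppp1r15a is counted both in the list of eIF2 alpha kinases, phosphatases and eIF2B and among the ATF4 partners. The mitochondrial share of UMIs was 0.270% in the wild-type and 0.525% in the knockout library. In lymphatic endothelium-like nuclei Egr1 had 29 and 23 UMIs (0.589, 0.325 to 1.05) and Fos 1 and 17 (12.6, 1.98 to 527). In blood endothelium-like nuclei Egr1 had 13 and 72 (3.01, 1.65 to 5.92) and Fos 2 and 61 (16.6, 4.40 to 140). The part of these measures in the values of Atf3 and Ddit4 was not tested.

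**Figure D4:**
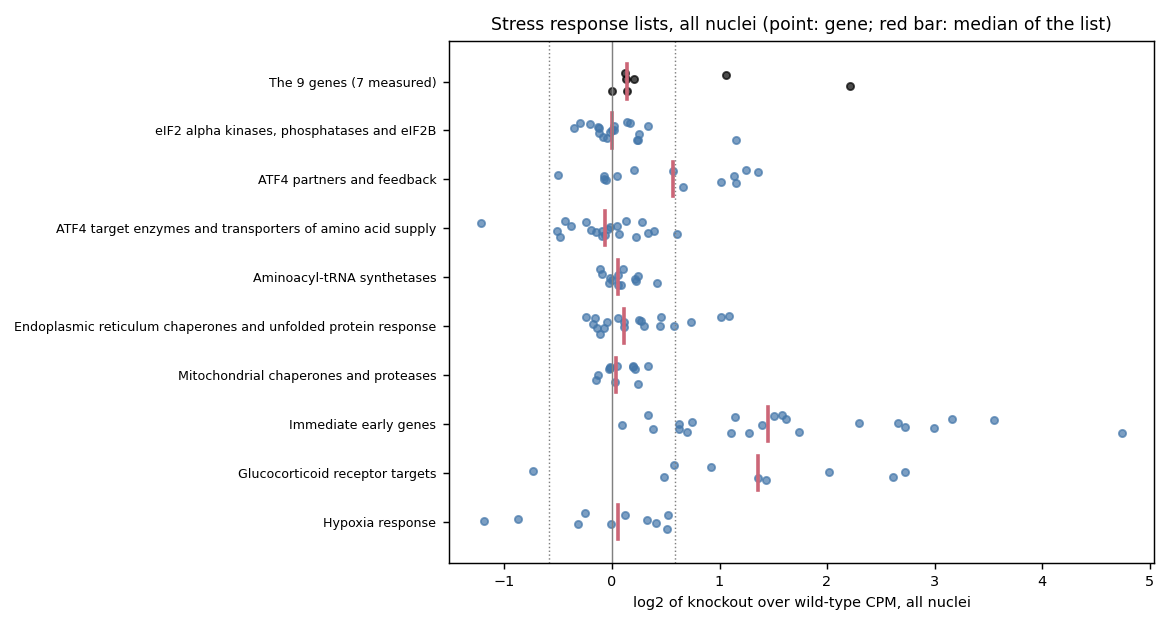
Log2 ratio of knockout over wild-type CPM over all nuclei (x axis) of every measured gene (points) in the 9 genes and 9 lists of related genes (y axis), with the median of each list as a red bar. Dotted lines mark 1.5-fold. Immediate early genes and glucocorticoid targets lie furthest to the right, and the amino acid supply, tRNA synthetase and mitochondrial lists centre near 0.

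The genes with the most similar pattern over cell types were taken from 10556 genes by the Pearson correlation of log2(CPM + 5) over 20 points, 10 cell groups in each of the 2 libraries. These points share libraries and depth, so the values only describe. For Atf4 they were Ccnl2 (r = 0.94), Sec24a (0.93) and Scfd1 (0.93). For Atf3 they were Ube2b (0.83), Actb (0.81) and Rhob (0.76), and for Ddit3 Plekhg1 (0.88), Tfg (0.85) and Fam124a (0.82). Ddit4 had the loosest neighbours of the 4 genes, Vmp1 (0.74), Kdm6a (0.73) and Ubl5 (0.70). None of the 9 genes was among the closest 3 of another. The other 5 genes were measured in fewer than 4 classes and were not compared in this way.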

How the data were processed

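The deposited values are raw UMI counts by gene and barcode. Per the file headers the authors used Cell Ranger 6.1.2, and the submitters' processing notes name mm10 (GRCm38). Annotation release, intron and strand counting and doublet removal: not given in the sources used here. Coordinates came from GENCODE M21, matched for 32158 of 32285 IDs (99.6%). Nuclei with at least 500 UMIs, at least 300 genes and at most 10% mitochondrial UMIs were kept, and the highest Scrublet scores were removed as doublets (7.11% of wild-type and 9.72% of knockout barcodes). The rest were clustered jointly with scanpy 1.11.5 (2000 variable genes, 30 principal components, 20 neighbours, Leiden resolution 1), leaving out stress, mitochondrial, Xist, Y-linked and Pink1 genes. Names are rebuilt: each cluster was called after the class whose markers had the largest mean log2 fold, given a mean of at least 0.3 and 3 markers at least 2-fold up. This rule was set with the data known, and the names may differ from the study's. Counts were summed per library and class. Levels carry exact Poisson and ratios exact conditional binomial 95% intervals. The ratio intervals held the true value for most genes in simulated Poisson counts, the model they assume. That check does not cover UMIs gathered in single nuclei. A class needed 100 nuclei per library and a gene 20 UMIs. Medians used 0.5 added to each count. The 9 genes, the lists and the markers were chosen with earlier results of these data known. Named besides them are the 3 most similar genes, the highest and lowest ratio of each list among genes with at least 50 UMIs, the eIF2 alpha kinases and Ppp1r15a. Other genes were named after their values were seen. The 13 alternatives covered filters, doublets, clustering, depth, scaling (edgeR 4.0.16 TMM), free RNA and single nuclei, of which nuclei without a mitochondrial UMI and clusters weighted alike were added after seeing the data.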

Additional observations from a re-analysis of the deposited data

Results flagged for a closer look

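Atf4 went opposite ways between the libraries in different classes, with intervals that exclude 1 on either side: the ratio was 1.92 in fibroblast-like, 1.71 in smooth muscle-like and 1.17 in goblet-like nuclei, and 0.844 in colonocyte-like nuclei. Ddit3 did the same in 2 classes, at 1.77 in goblet-like and 0.741 in colonocyte-like nuclei, but the first was 1.26 in nuclei thinned to 500 UMIs and the second turned to 1.498 in nuclei without a mitochondrial UMI. The Atf4 ratio was 1.04 in thinned goblet-like nuclei, and 1.40 in smooth muscle-like nuclei without doublet removal. In colonocyte-like nuclei TMM scaling moved every ratio up by 0.10 on the log2 scale, and that of Atf4 to 0.908. That shift would put the upper limits of Atf4 and Ddit3 there above 1, so their exclusion of 1 depends on the scaling. With 1 library per genotype the difference between classes was not tested.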

How the results depend on the processing

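No paired analysis was possible because each genotype has 1 library. Of 522 values recomputed under alternatives, 488 stayed within their counting interval or within 1.5 times the count. Some of these could hardly move. Clustering resolutions of 0.5 and 2 left fibroblast-like and smooth muscle-like values unchanged, and genes with few UMIs have wide intervals. The Gdf15 ratio in colonocyte-like nuclei reversed to 1.03 with the stricter filter and 1.19 in nuclei thinned to 500 UMIs. The count of genes at least 1.5-fold lower in that class was 0 under both, 0 with TMM scaling and in nuclei without a mitochondrial UMI, and 2 without doublet removal. In smooth muscle-like nuclei 1 gene was lower with the stricter filter, and 1 rather than 2 was higher without doublet removal and in thinned nuclei. In macrophage and dendritic-like nuclei 1 was higher without doublet removal. Over all thinned nuclei the ratios of Ddit3 and Ddit4 were 0.970 and 2.55. In nuclei without a mitochondrial UMI (25.8% of wild-type and 9.68% of knockout nuclei), Atf3 had 3.34, Ddit4 2.82, Atf5 0.748 and Asns 0.616, and Ddit3 in colonocyte-like nuclei turned from 0.741 to 1.498, with 1 gene lower over all nuclei and 1 higher in colonocyte-like nuclei. The causes were not tested. TMM scaling moved every ratio up, by 0.10 on the log2 scale in colonocyte-like nuclei, the largest shift. Depth limits Trib3, Chac1 and the small classes, where a value can rest on few UMIs or none.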

Other observations

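Whether the genes were found in the same nuclei was described at unthinned depth, within 1 class of the knockout library, which leaves out differences between mice and keeps those between clusters. The 146 knockout colonocyte-like nuclei with an Atf3 UMI (median 1701.5 UMIs) were set beside the 1667 without (median 1648 UMIs). Ddit3 was at 73.9 and 29.97 CPM in them, a ratio of 2.46 (1.46 to 4.00), and Fos at 1150 and 773 CPM, a ratio of 1.49 (1.32 to 1.67). Atf4 was at 137 and 141 CPM, a ratio of 0.974 (0.683 to 1.35), and Egr1 at 303 and 363 CPM, a ratio of 0.833 (0.661 to 1.04).

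In unthinned knockout goblet-like nuclei, the 118 with a Ddit3 UMI (median 2171 UMIs) had Hspa5 at 867 CPM against 556 CPM in the 1027 others (median 1779 UMIs), a ratio of 1.56 (1.35 to 1.80). Atf4 differed little between them, with a ratio of 0.8996 (0.706 to 1.13). The 490 goblet-like nuclei with an Atf4 UMI had Asns at 28.7 CPM against 14.9 CPM in the 655 without, a ratio of 1.92 (1.03 to 3.65), while the ratios for Ddit3 (0.933, 0.676 to 1.29) and Ddit4 (1.13, 0.779 to 1.64) had intervals that include 1. Their median depths were 1953.5 and 1708 UMIs. Of these goblet-like relations 5 were picked after their values were seen, and none was tested.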
